A study of Mus with 6 samples.

Results

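The GIMAP genes (GTPases of immunity-associated proteins) form a single family of small GTP-binding proteins, and its 8 mouse members, Gimap1, Gimap3, Gimap4, Gimap5, Gimap6, Gimap7, Gimap8 and Gimap9, were taken by gene symbol from the 10995 protein-coding genes of the deposited table. All 8 were listed once, and all 8 passed the filter on low values described below. Naive CD4+ T cells of wild-type mouse spleen were kept for 3 days under activation by IL-2 at 100 U/mL, anti-CD3 at 5 μg/mL and anti-CD28 at 2 μg/mL. For 3 libraries the medium also held an antibody that neutralizes the growth factor VEGF-B (1 μg/mL), and for 3 control libraries it held IgG (1 μg/mL). The study asked how VEGF-B made by T cells supports their survival after activation, and no unactivated cells were among these libraries. Nothing in the labels says whether the 3 libraries of a group came from separate mice, so the p-values measure the spread between these libraries, which may be technical.

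GIMAP proteins share a GTP-binding domain of the AIG1 type and are made mainly in lymphocytes, in which several of them sit on internal membranes such as the endoplasmic reticulum, lysosomes or the outer mitochondrial membrane. They are best known for keeping resting T cells alive: loss of GIMAP5 in mice and rats causes a shortage of peripheral T cells, and GIMAP1 is required for mature T and B cells. Members have been linked to both sides of the life-or-death decision, through contacts with BCL2 proteins, and to autophagy, through contacts with ATG8 proteins. The family is usually abundant in naive T cells.

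Expression was given as FPKM, a read abundance scaled for library size and for gene length, so that levels can be compared between genes. The FPKM of a library summed to between 260058 and 276622, and the depth in reads is unknown. Of 9 markers of CD4+ T cells 8 were analysed here, and they summed to 504 to 537 FPKM under anti–VEGF-B and to 506 to 577 FPKM under IgG. Cd4 itself ranged from 64.0 to 74.6 FPKM (adjusted p = 0.780 from limma), while Thy1 (log2 fold change -0.75), Cd3e (-0.51) and Cd5 (-0.38) were called lower with anti–VEGF-B, and the part of T cell content in the results was not tested. Among other cell types, Cd8a was at most 0.182 FPKM, Cd8b1 at most 4.51 FPKM, and Cd79b, the 1 of 5 B cell markers analysed here, at most 1.34 FPKM. The 2 NK cell markers of 4 analysed summed to at most 0.645 FPKM, the endothelial marker Pecam1, 1 of 5 and also on the list of naive T cell genes, ranged from 5.87 to 7.37 FPKM, and the erythroid markers were not analysed here. Of 6 myeloid markers 3 were analysed. They summed to 10.9 to 12.1 FPKM in anti–VEGF-B libraries and to 12.4 to 27.0 FPKM in IgG libraries, the highest value being IgG replicate 3. The part of myeloid content in the results was not tested. In bulk RNA, fewer cells of a type and less RNA per cell cannot be told apart. Differences in log2(FPKM + 1) were tested by limma for the 8816 genes averaging 1 FPKM or more, and those with a Benjamini-Hochberg adjusted p below 0.05 are referred to as called. Fold changes on this scale understate the change of weakly expressed genes. The median log2 fold change of all tested genes was -0.15, and for called members the value relative to this median is also given.

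The GIMAP genes were well expressed in activated CD4+ T cells. By mean FPKM with IgG, they lay between the percentiles 71.6 and 95.8 of all tested genes. Their order with IgG ran from Gimap6 (mean 91.9 FPKM) through Gimap4 (66.6), Gimap3 (58.8), Gimap7 (56.7), Gimap9 (44.7), Gimap1 (17.5) and Gimap5 (16.5) to Gimap8 (14.6). In this order the IgG values of Gimap4, Gimap3 and Gimap7 overlapped from neighbor to neighbor, as did those of Gimap1, Gimap5 and Gimap8. With anti–VEGF-B the order was Gimap6 (88.0 FPKM), Gimap7 (72.0), Gimap4 (47.9), Gimap9 (34.0), Gimap3 (24.7), Gimap1 (19.8), Gimap5 (14.2) and Gimap8 (9.27), and no neighbors overlapped.

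The family did not move as a block. Of the 8 members, 4 were called lower with anti–VEGF-B (Gimap3, Gimap8, Gimap4 and Gimap9), 1 was called higher (Gimap7) and 3 were not called (Gimap1, Gimap5 and Gimap6). Among all tested genes 23.8% were called lower and 4.87% higher. Scaling mattered to these shares: after quantile normalization 913 of all tested genes were lower and 880 higher, and after median centring 807 and 1365, with 2 members lower and 2 higher. As deposited, 5 members had lower values in all anti–VEGF-B libraries than in any IgG library and 1 had higher values in all of them, where 38.5% and 10.5% of all tested genes did so. The median log2 fold change of the members was -0.29, against -0.15 for all tested genes. The count of members called lower was 2 without anti–VEGF-B replicate 2, 1 without anti–VEGF-B replicate 3 and 2 without IgG replicate 2. The count called higher stayed at 1 in each fit without 1 library. Calls also fell over the whole table: 1430, 695 and 1101 of all tested genes were lower in these fits, respectively, against 2099 with all libraries. When limma's variances were not moderated, 0 members were called, and of all 8816 tested genes only 6 were called lower and 6 higher. In that fit 6 members had an unadjusted p under 0.05, and the share of all tested genes at that p is not given here.

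**Figure D1:**
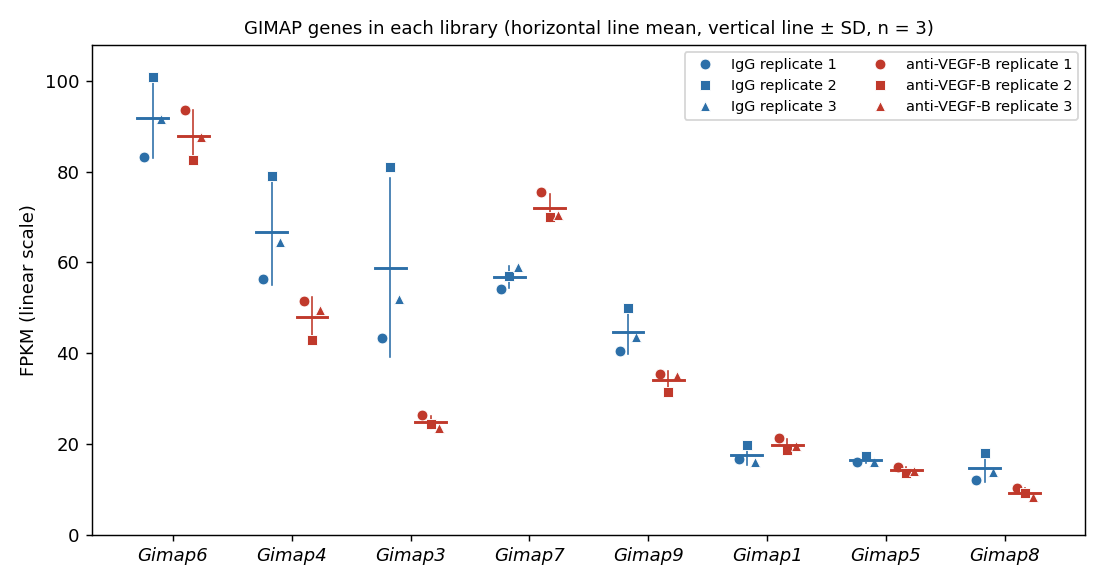
FPKM of the 8 GIMAP genes (horizontal axis, ordered by mean with IgG) in the 3 IgG libraries (blue) and 3 anti–VEGF-B libraries (red), with the mean as a horizontal line and the SD as a vertical line. Gimap3 lay between 43.4 and 81.1 with IgG and between 23.5 and 26.3 with anti–VEGF-B, whereas Gimap7 lay between 69.9 and 75.6 with anti–VEGF-B and between 54.2 and 59.0 with IgG.

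Gimap3 showed the largest change of the family. It encodes a close relative of GIMAP5 that is anchored in the outer mitochondrial membrane, and it lies at the far end of the cluster (ENSMUSG00000039264.9, chromosome 6 of GRCm38, 48764464 to 48770851, minus strand). The gene was at 26.3, 24.3 and 23.5 FPKM under anti–VEGF-B and at 43.4, 81.1 and 51.9 FPKM under IgG. Every IgG library was above every anti–VEGF-B library, and IgG replicate 2 stood well above the other two. Means were 24.7 ± 1.45 FPKM with anti–VEGF-B and 58.8 ± 19.8 FPKM with IgG (SD, n = 3 each), which is 2.38-fold higher with IgG. By limma, the log2 fold change was -1.17 with a standard error of 0.188 (adjusted p = 0.00650). Counted from the median of all tested genes this is -1.02, and only 0.363% of the tested genes had a lower value. Without IgG replicate 2 the fall was smaller but less variable, at -0.92 (adjusted p = 0.00680 from limma). Gimap3 and Gimap5 are similar in sequence, and reads may have been split between them.

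Gimap5, the member whose loss shortens the life of T cells (ENSMUSG00000043505.8, 48746197 to 48754210, plus strand), did not pass. It was at 15.0, 13.7 and 14.0 FPKM with anti–VEGF-B and at 16.1, 17.4 and 16.1 FPKM with IgG. These values did not overlap between the groups, but the difference was small. A log2 fold change of -0.20 was found (95% interval -0.38 to -0.021, adjusted p = 0.0856 by limma), which lay -0.048 from the median of all tested genes. The closely related pair had unequal changes: the log2 ratio of Gimap5 to Gimap3 was -0.81, -0.83 and -0.74 with anti–VEGF-B but -1.43, -2.22 and -1.69 with IgG. The groups lay apart in this ratio, which is taken within a library and so does not depend on the scaling between libraries.

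Gimap8, Gimap9 and Gimap4 lie next to each other at the start of the cluster, all on the plus strand, and all were called lower. Gimap8 (ENSMUSG00000064262.7, 48647234 to 48660875), the longest of the family with several GTP-binding domains in its protein, was at 10.3, 9.22 and 8.31 FPKM with anti–VEGF-B and at 12.0, 18.0 and 13.9 FPKM with IgG. The groups lay apart, and IgG replicate 2 was again the highest. Its log2 fold change was -0.59 with a standard error of 0.140 (adjusted p = 0.0170 by limma), or -0.44 from the median of all tested genes, and the adjusted p was 0.0614 without anti–VEGF-B replicate 3.

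Gimap4 (ENSMUSG00000054435.16, 48684549 to 48692060), which has been linked to faster death of T cells once apoptosis has begun, was at 51.5, 42.9 and 49.4 FPKM with anti–VEGF-B. With IgG it was at 56.3, 79.1 and 64.5 FPKM. All IgG libraries exceeded all anti–VEGF-B libraries, although IgG replicate 1 was close to anti–VEGF-B replicate 1. This gave a log2 fold change of -0.46 with a standard error of 0.123 (adjusted p = 0.0257 by limma), or -0.30 from the median of all tested genes.

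Gimap9 (ENSMUSG00000051124.6, 48676129 to 48679114) was at 35.5, 31.5 and 35.0 FPKM with anti–VEGF-B and at 40.5, 49.9 and 43.5 FPKM with IgG. The groups lay apart, with the smallest fall among the 4 called members. It had a log2 fold change of -0.38 with a standard error of 0.0933 (adjusted p = 0.0188 by limma), or only -0.23 from the median of all tested genes. Among the called members, Gimap4 and Gimap9 lost their calls under the most settings. The adjusted p without IgG replicate 2 was 0.0650 for Gimap4 and 0.0528 for Gimap9, without anti–VEGF-B replicate 2 it was 0.0756 and 0.0546, and without anti–VEGF-B replicate 3 it was 0.0621 and 0.0524. Median centring also ended both calls, at -0.26 for Gimap4 (0.114) and -0.18 for Gimap9 (0.143), and scaling to Actb ended that of Gimap9 (0.0539).

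Gimap7 was the only member called higher. Its product lacks a membrane anchor and can pair with other GIMAP proteins and speed up their GTP hydrolysis. The gene (ENSMUSG00000043931.10, 48718621 to 48724636, plus strand) was at 75.6, 69.9 and 70.5 FPKM with anti–VEGF-B and at 54.2, 57.0 and 59.0 FPKM with IgG. All anti–VEGF-B libraries were above all IgG libraries, and the spread within each group was small. Means were 72.0 ± 3.11 and 56.7 ± 2.43 FPKM (SD, n = 3 each), which is 1.27-fold higher with anti–VEGF-B. The rise was 0.34 on the log2 scale with a standard error of 0.0714 (adjusted p = 0.0124 by limma), or 0.49 when counted from the median of all tested genes, and 95.8% of the tested genes had a lower value. It passed under each scaling run and in each fit without 1 library, but not with unmoderated variances (adjusted p = 0.0696) or with an overlapping gene model added, as described below.

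Gimap1 and Gimap6 were not called. Gimap1 (ENSMUSG00000090019.5, 48739054 to 48743795, plus strand), required for the survival of mature lymphocytes, was at 21.2, 18.6 and 19.5 FPKM with anti–VEGF-B and at 16.7, 19.8 and 15.9 FPKM with IgG. IgG replicate 2 lay within the anti–VEGF-B values. Its log2 fold change was 0.17 (95% interval -0.049 to 0.40, adjusted p = 0.204 from limma), and after median centring it was 0.37 and passed (adjusted p = 0.0166 from limma). Gimap6 (ENSMUSG00000047867.11, 48701582 to 48708225, minus strand), whose product binds the ATG8 protein GABARAPL2, was the most abundant member in both groups, at 93.7, 82.6 and 87.6 FPKM with anti–VEGF-B and at 83.2, 101 and 91.5 FPKM with IgG. The groups overlapped. The log2 fold change was -0.060 (95% interval -0.26 to 0.14, adjusted p = 0.632 from limma), and its sign depended on the scaling.

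**Figure D2:**
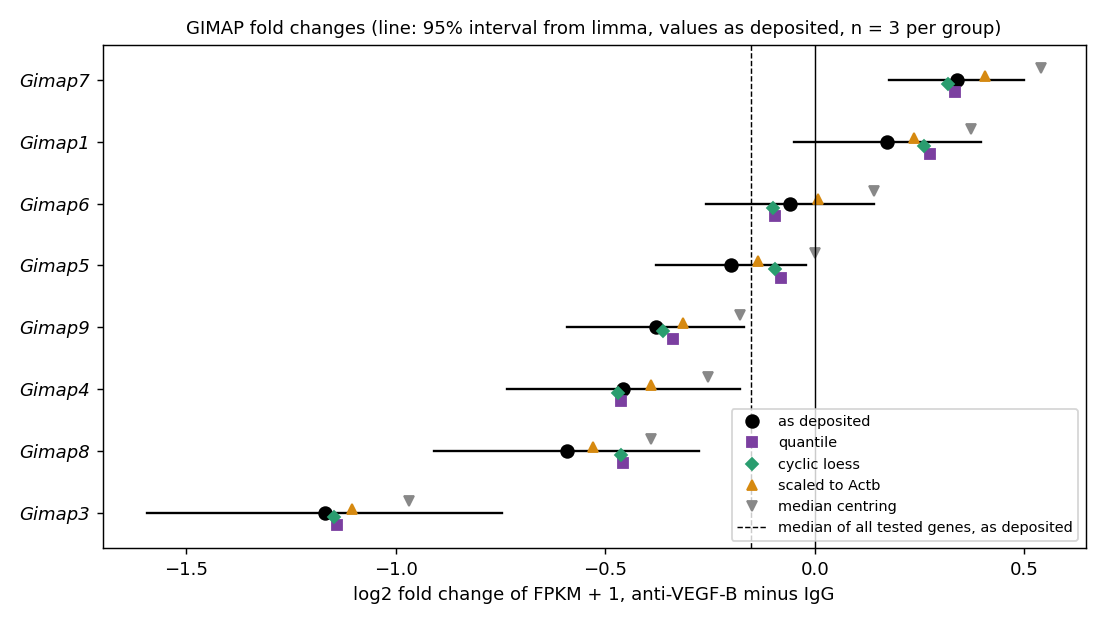
log2 fold change of FPKM + 1 (horizontal axis, anti–VEGF-B minus IgG) for each GIMAP gene, as deposited with its 95% interval from limma (black) and after 4 other scalings between libraries (colored symbols), with the median of all tested genes (-0.15) as a dashed line. Gimap3 stayed between -1.17 and -0.97 and Gimap7 between 0.32 and 0.54 under these scalings, whereas Gimap6 and Gimap5 reached both sides of 0.

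Two-sided exact permutation tests of the FPKM gave p = 0.1 for Gimap3, Gimap4, Gimap5, Gimap7, Gimap8 and Gimap9, which is the smallest value that 3 libraries against 3 allow, 0.3 for Gimap1 and 0.6 for Gimap6. IgG replicate 2 had the highest of the 3 IgG values for 7 of the 8 members, and for 59.3% of all tested genes. The part of this library in the results is given by the fits without it.

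The make-up of the family differed between the treatments. The FPKM of the 8 genes summed to 329, 293 and 308 with anti–VEGF-B and to 322, 423 and 356 with IgG, so that the sums overlapped. The log2 ratio of the mean sums was -0.25, and -0.13 without IgG replicate 2. Gimap3 made up 8.0, 8.31 and 7.63% of the sum under anti–VEGF-B and 13.5, 19.2 and 14.6% with IgG. Gimap7 made up 23.0, 23.9 and 22.9% with anti–VEGF-B and 16.8, 13.5 and 16.6% with IgG. Gimap6 supplied the largest share in every library, with a mean of 28.4% under anti–VEGF-B and 25.1% under IgG. The share of Gimap5 was nearly level, at 4.60% ± 0.0665 and 4.54% ± 0.443 (SD, n = 3 each).

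**Figure D3:**
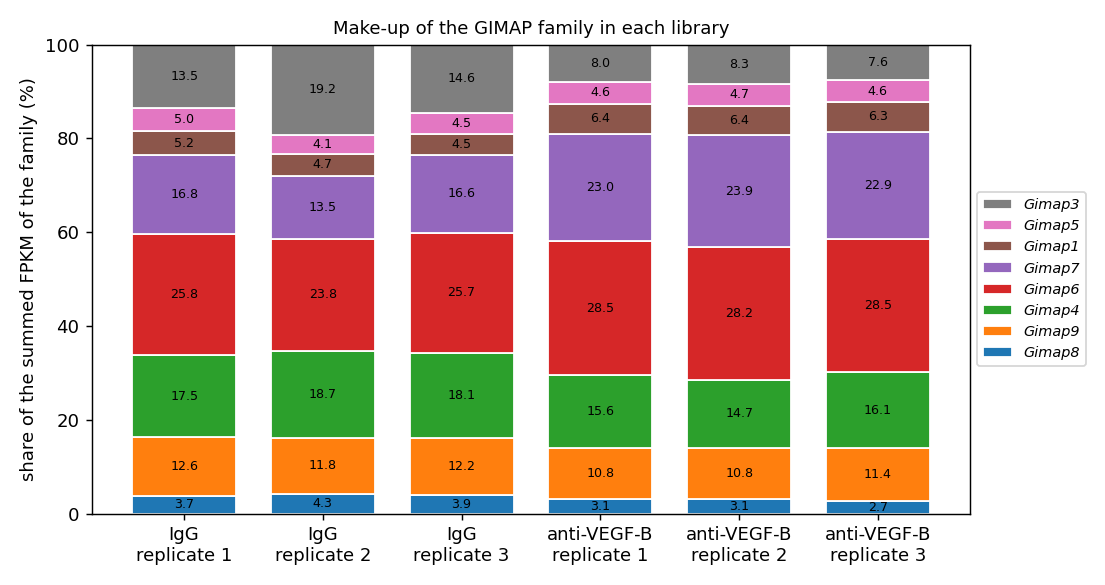
Share of each GIMAP gene in the summed FPKM of the family (vertical axis, %) in the 3 IgG and 3 anti–VEGF-B libraries, stacked in chromosomal order from Gimap8 at the bottom to Gimap3 at the top. The share of Gimap3 was 13.5 to 19.2% with IgG and 7.63 to 8.31% with anti–VEGF-B, and that of Gimap7 was 13.5 to 16.8% and 22.9 to 23.9%.

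Ratios between members within a library also changed unequally, and they need no scaling between libraries. Each ratio depends on the other members too, and is not the change of a gene alone. Relative to the mean log2 FPKM of the 7 other members, Gimap3 was lower with anti–VEGF-B by a difference of -1.02, Gimap8 by -0.39 and Gimap4 by -0.18, whereas Gimap7 differed by 0.74, Gimap1 by 0.56 and Gimap6 by 0.28. The groups lay apart for these 3 lower and 3 higher genes (p = 0.1, the lowest value a two-sided exact permutation test can give here). Of the tested genes outside the family, set against the mean of all 8 members, 13.7% lay apart and lower and 27.4% apart and higher. The groups overlapped for Gimap9 (-0.096, p = 0.2 in the exact permutation test) and Gimap5 (0.11, p = 0.4). By FPKM itself it was Gimap1 and Gimap6 that overlapped, while Gimap9 and Gimap5 lay apart. The most divergent pair was Gimap7 and Gimap3, whose ratio from the mean log2 values was 0.998 with IgG and 2.91 with anti–VEGF-B. The IgG libraries differed, with log2 ratios of 0.32, -0.51 and 0.18 in replicates 1, 2 and 3, against 1.52, 1.52 and 1.58 with anti–VEGF-B. Of the 28 pairs of members, 24 had log2 ratios that did not overlap between the groups, where 43.7% of all pairs of tested genes did so. Pairs share members and are not independent. The 4 pairs that overlapped were Gimap8 with Gimap4, Gimap9 with Gimap4, Gimap4 with Gimap5, and Gimap7 with Gimap1.

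All 8 members lie within 124 kb on chromosome 6 (GRCm38, 48647234 to 48770851), in the order Gimap8, Gimap9, Gimap4, Gimap6, Gimap7, Gimap1, Gimap5 and Gimap3. Along this order the log2 fold changes ran from -0.59, -0.38 and -0.46 at the Gimap8 end to -0.060, 0.34 and 0.17 in the middle and to -0.20 and -1.17 at the Gimap3 end. The adjacent genes Gimap1 and Gimap5 are 2401 bases apart on the same strand, and the log2 ratio of Gimap1 to Gimap5 had means of 0.47 with anti–VEGF-B and 0.077 with IgG, with groups that lay apart.

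**Figure D4:**
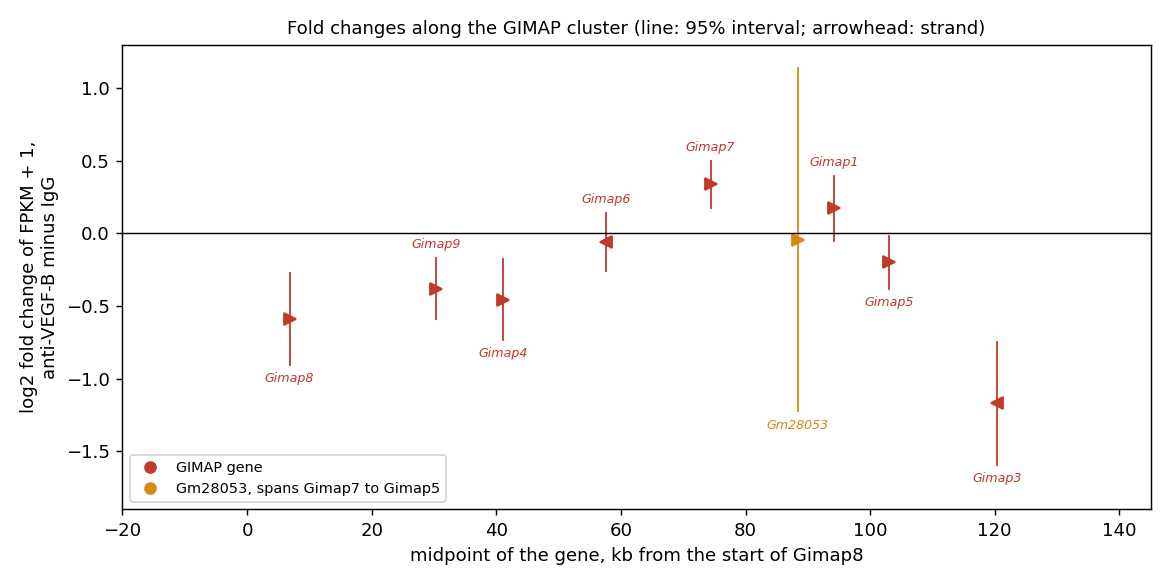
log2 fold change of FPKM + 1 (vertical axis, anti–VEGF-B minus IgG) with its 95% interval against the midpoint of each gene in kb from the start of Gimap8 (horizontal axis), with arrowheads for the strand, GIMAP genes in red and the overlapping gene model Gm28053 in orange. The 3 genes at the left and Gimap3 at the right were lower, Gimap7 was higher, and Gm28053 had a wide interval around -0.043.

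A further gene model, Gm28053, runs for 34.0 kb (48718607 to 48752644) on the plus strand across the whole of Gimap7 and Gimap1 and across 6448 bases of Gimap5. It was listed at 13.3, 3.57 and 14.3 FPKM with anti–VEGF-B and at 3.84, 15.5 and 12.7 FPKM with IgG. Each group thus held 1 library with a low value, and the log2 fold change was -0.043 (adjusted p = 0.956 from limma). Reads from shared sequence may have been assigned to either model, which adds uncertainty to the values of Gimap7, Gimap1 and Gimap5. The overlap given is of whole gene spans. When the FPKM of Gm28053 was added to each of these genes, Gimap7 was at 88.9, 73.5 and 84.8 with anti–VEGF-B and at 58.0, 72.5 and 71.7 with IgG. These sums still lay apart, but the log2 fold change of 0.29 no longer passed (adjusted p = 0.0704 from limma). This step adds the same Gm28053 value to each gene and carries its spread between libraries into the fit. It does not reassign reads. The same step gave 0.10 for Gimap1 and -0.14 for Gimap5 (adjusted p = 0.727 and 0.635 from limma).

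Values of the genes beside the cluster were also read, with no test of their difference from the GIMAP genes. Within 1 Mb of either end, 18 further genes were listed and 10 were tested, of which limma called 0 lower and 2 higher, with a median log2 fold change of -0.017. At an unadjusted p under 0.05, 1 of them had a negative value, Lrrc61 (-0.65, adjusted p = 0.0899 from limma), and its groups overlapped. Of the 8 genes below the filter, 2 were called lower in the fit over all listed genes, Zfp398 (-0.50, adjusted p = 0.0183 from limma) and Krba1 (-0.34, adjusted p = 0.0457), both at about 1 FPKM or less, and 0 higher. The 2 called genes were the zinc finger genes Zfp212 (0.37, adjusted p = 0.0215 from limma) and Zfp777 (0.28, adjusted p = 0.0276). The nearest listed genes, Zfp775 at 24.0 kb and Gpnmb at 266 kb, had means of at most 0.869 FPKM in either group and were below the filter.

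Genes of related function were described by lists. Of 17 BCL2-family and caspase genes tested, 5 (29.4%) were called lower and 1 (5.88%) higher, near the 23.8% and 4.87% of all tested genes, with a median log2 fold change of -0.19 against -0.15. Bcl2, the survival protein with which GIMAP3 and GIMAP5 have been found, was at 15.1, 13.9 and 11.2 FPKM with anti–VEGF-B and at 22.2, 35.4 and 24.9 FPKM with IgG. The groups lay apart, where 38.5% of all tested genes lay apart and lower. IgG replicate 2 was the highest, as it was among the IgG values of 59.3% of all tested genes. The log2 fold change of Bcl2 was -0.97 (adjusted p = 0.00731 from limma). Pmaip1, which encodes the death-promoting protein NOXA, fell by 0.98 on the log2 scale (adjusted p = 0.00469), as did Casp8 by 0.55 (0.0214), while Bcl2l11, which encodes the death-promoting protein BIM, rose from 12.7 to 17.5 FPKM (0.44, adjusted p = 0.0166). The calls of Bcl2l11 and Casp8 were lost without anti–VEGF-B replicate 3 (adjusted p = 0.0617) and without anti–VEGF-B replicate 1 (0.0652), respectively, and Casp8 also after median centring (-0.35, adjusted p = 0.0598). Of the list, 3 genes were called lower when any of these libraries was left out: anti–VEGF-B replicate 2 or 3, or IgG replicate 2 or 3. Of all tested genes 695 to 1525 were lower in these fits, against 2099 with all libraries. Bax, which GIMAP4 has been found with, was not called (-0.14, adjusted p = 0.191 from limma).

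Of 15 genes of the ATG8 family and its conjugation tested, 4 (26.7%) were called lower and 1 (6.67%) higher, also near the shares of all tested genes, and the median of -0.14 was close to their -0.15. Gabarapl2, the partner of GIMAP6, was at 11.7, 12.1 and 10.0 FPKM with anti–VEGF-B and at 13.1, 15.9 and 15.5 FPKM with IgG. Its log2 fold change was -0.37 (adjusted p = 0.0301 from limma), a call that ended after each of the 4 other scalings between libraries (0.0777 to 0.183). Its relative Gabarapl1 fell by 0.41 on the log2 scale (adjusted p = 0.0125), and only median centring (0.0908), among these scalings, ended the call. The autophagy genes Ulk1 (-0.32, adjusted p = 0.0363) and Atg4d (-0.50, adjusted p = 0.0309) made up the 4. Ulk1 lost its call under all 4 other scalings (0.144 to 0.290), and Atg4d under all but scaling to Actb (0.110 to 0.162). Only 1 gene of the list was called lower after leaving out any of these libraries: anti–VEGF-B replicate 1 or 3, or IgG replicate 2 or 3. Of all tested genes 695 to 1525 were lower in these fits, against 2099 with all libraries.

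Of 20 genes of naive and resting T cells tested, 9 (45.0%) were called lower and 2 higher (median -0.34). For all tested genes these shares were 23.8% lower and 4.87% higher, with a median of -0.15. Txnip (-1.59), Slfn2 (-1.03) and Ccr7 (-0.93), a homing receptor of naive T cells, were lower, while the transcription factor gene Foxo1, known to keep T cells quiescent, was higher (0.48, adjusted p = 0.00875 from limma). Of 20 activation genes tested, 13 (65.0%) were called lower and 1 higher (median -0.45), beside the same shares of all tested genes. Those with the lowest p were the proliferation marker Mki67 (-1.48), Cd69 (-0.74), Irf4 (-1.67) and Nfkbid (-1.06). After median centring 4 naive genes were lower and 4 higher, and 8 activation genes were lower and 2 higher. In that fit 807 of all tested genes were lower and 1365 higher. Without anti–VEGF-B replicate 2 or anti–VEGF-B replicate 3, 8 activation genes were called lower, where 1430 and 695 of all tested genes were, against 2099 with all libraries.

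The interferon-inducible GTPases are another group of immune GTPases with many members. Of 17 tested, limma called 13 (76.5%) lower and 0 higher (0 higher at an unadjusted p under 0.05), with a median of -0.68. The shares of all tested genes were 23.8% lower and 4.87% higher. The lowest p belonged to Tgtp1 (-1.60), Tgtp2 (-1.42), Irgm2 (-1.46) and Gbp7 (-1.16). Tgtp1 and Tgtp2 are near-identical copies, and reads may have been split between them. Beside them the 8 GIMAP genes ranged from -1.17 to 0.34. No test compared these lists with each other.

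**Figure D5:**
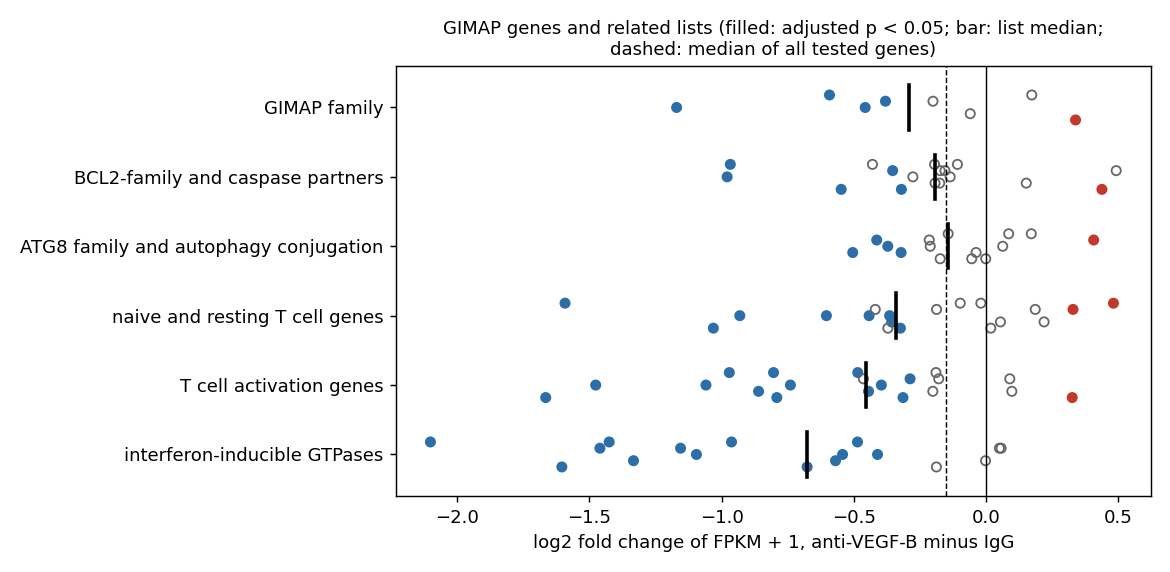
log2 fold change of FPKM + 1 (horizontal axis, anti–VEGF-B minus IgG) of each tested gene in the GIMAP family and 5 related lists, filled blue for genes called lower, filled red for genes called higher and open for genes not called, with a bar at the median of each list and a dashed line at the median of all tested genes (-0.15). The GIMAP median was -0.29, and that of the interferon-inducible GTPases was -0.68.

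The genes whose pattern over the 6 libraries was most like the mean profile of the family were Zfp266, Osbpl2, Il7r, Trappc5 and Psme2, at Euclidean distances of 0.0195 to 0.0651 between centred log2 values. Among them Il7r, which encodes the receptor for the survival cytokine IL-7 and is also on the list of naive T cell genes, had means of 26.4 FPKM for anti–VEGF-B and 33.5 FPKM for IgG. These 5 were chosen for their small distances. Among the members, the distance ran from 0.142 for Gimap9 to 0.811 for Gimap7 and 1.14 for Gimap3.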

How the data were processed

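RNA of 3 anti–VEGF-B and 3 IgG libraries was measured with a stranded kit. The authors aligned reads to GRCm38 with hisat2 and StringTie, analyzed expression with Ballgown and deposited 1 table, whose fractional values were read as FPKM despite its name of raw data. Neither the strand setting nor scaling between libraries is given in the sources used here. Below 0.3 FPKM at most 2.62% of genes shared a ratio between a pair of libraries, so reads were not recovered and no count test was run.

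For genes averaging 1 FPKM or more, log2(FPKM + 1) entered limma 3.58.1 (R 4.3.3; empirical Bayes with trend, no covariate), with Benjamini-Hochberg adjustment over the 8816 genes. Exact permutation tests used scipy 1.17.1. The limma fit was also run on simulated independent values with no shift between libraries, so that run does not bear on the scaling. The genes named were all members, the 4 tested genes of lowest p in each list, called and nearest genes within 1 Mb, the 5 most similar patterns and marker genes. Bax, Gm28053, Lrrc61, Zfp398 and Krba1 were named after their values were seen. Members and lists were chosen with earlier results of these data known. Planned comparisons of promoters and proteins were not analysed here. The 15 alternatives changed the scaling, filter, pseudocount, moderation, block and libraries; adding Gm28053 was chosen after seeing the data.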

Additional observations from a re-analysis of the deposited data

How the results depend on the processing

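Depth is unknown, and the errors given cover the spread between 3 libraries per group, not the assignment of reads among overlapping or similar genes. Of 15 other settings, 14 kept the calls of Gimap3 and Gimap7, 13 that of Gimap8, 10 that of Gimap4 and 9 that of Gimap9. The exception for Gimap3 and Gimap7 was the fit with no moderation (adjusted p = 0.0838 and 0.0696, against lowest values of 0.00300 and 0.00580 over these settings). With no moderation 0 members and 0 genes of every list were called by limma's linear model. In it 6 members had an unadjusted p under 0.05, and the share of all tested genes at that p is not given here. Of all 8816 tested genes that fit called only 6 lower and 6 higher. After median centring 2 members were lower and 2 higher, as were 807 and 1365 of all tested genes. Adding Gm28053 in full to each gene it overlaps, which does not reassign reads, left 0 members higher. Gimap6 was above 0 after median centring (0.14), scaled to Actb (0.0077) and without IgG replicate 2 (0.0096, against -0.13 without IgG replicate 1), as was Gimap5 after median centring (0.00043). The median of all tested genes moved from -0.15 to -0.096 with scaling to Actb, 0.0019 with cyclic loess, 0.0077 with quantile normalization and 0.049 with median centring. Without 1 library, 1 to 4 members were lower and 1 higher, and of all tested genes 695 to 2071 were lower and 164 to 396 higher.

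For the related lists, median centring gave 2 lower and 2 higher for BCL2-family genes, 0 and 3 for ATG8 genes, 4 and 4 for naive genes, and 8 and 2 for activation genes. Of all tested genes 807 were lower and 1365 higher in that fit. Scaled to Actb, 3 BCL2-family, 2 ATG8 and 5 naive genes were lower and 0 ATG8 genes higher. Of all tested genes 1309 were then lower and 365 higher, against 2099 and 429 as deposited. Quantile normalization and cyclic loess each left 1 ATG8 gene lower. Of all tested genes, quantile normalization gave 913 lower and 880 higher, and cyclic loess 938 and 852. Without 1 library, the counts lower and higher were 3 to 5 and 0 to 2 for BCL2-family genes, 1 to 5 and 0 to 1 for ATG8 genes, 6 to 10 and 1 to 2 for naive genes, 8 to 12 and 0 to 1 for activation genes, and 10 to 12 and 0 to 1 for interferon-inducible GTPases. For all tested genes these counts were 695 to 2071 and 164 to 396.

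Nothing in the labels says whether same-numbered libraries were paired. The correlations of same-numbered libraries' deviations were -0.030, 0.11 and 0.089, and those of differently numbered libraries ran from -0.175 to 0.0997. With 3 libraries per group these values cannot decide whether the libraries were paired. With the replicate block, 4 members were lower and 1 higher, as without it, and 2109 of all tested genes were lower and 469 higher, against 2099 and 429.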
